A study of Gallus gallus with 6 samples.

Results

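The genes described here are 44 chicken DNA damage checkpoint and repair genes, out of 13009 genes that the array annotation gives at least 1 probe set of their own. They came from a list of 46 symbols of known roles, and each was measured by the probe set with the highest mean over the 6 arrays. This list and the wider lists below were chosen with earlier results of these data known. The shares of their genes that changed are therefore not those of an independent choice. For FANCM and XRCC1 no probe set was used, and they are not analysed here. By role, 12 are checkpoint genes, 16 act in break repair, 8 in crosslink repair and damage bypass, and 8 in mismatch and excision repair.

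A DNA damage checkpoint halts the cell cycle while lesions are repaired. The kinase ATM answers broken DNA ends and the kinase ATR, with its partner ATRIP, answers exposed stretches of unpaired DNA at stalled replication forks; they signal through CHEK2 and CHEK1. Broken ends are either copied from a sister chromatid, which needs BRCA1, BRCA2 and the MRE11, RAD50 and NBN complex, or joined directly by the Ku proteins and their partners. Crosslinks are opened by the Fanconi anaemia proteins, and damaged bases and bulky lesions are cut out by excision repair. DT40 is a chicken B cell line that repairs and diversifies its immunoglobulin genes by homologous recombination, and it is widely used for knocking out repair genes.

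Gene expression was measured on 6 single-colour Affymetrix arrays of DT40 RNA, 2 for each of 3 groups. Wild type cells made up the first group, followed by K11 cells, labelled as an endogenous H1 knock out, and K11-5 cells, labelled as completely H1 null. Linker histone H1 binds the DNA between nucleosomes, and the chicken variant H1R has been tied to the response to DNA damage in DT40. Every culture, wild type included, grew at 39.5 °C and received the caspase inhibitor Z-VAD-FMK at 100 nM, an agent that blocks apoptosis. How the H1 genes were removed, what separates K11-5 from K11 beyond these labels and whether a line is 1 clone are unknown here.

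The values are probe set signals, quantile-normalized over the 6 arrays. Fold changes are differences of log2(signal + 2), which understates the change of dim genes, and the number of arrays limits their precision. A gene is said to have risen or fallen where limma's p, adjusted by the Benjamini-Hochberg method over all 23063 probe sets tested, was under 0.05. The labels do not say whether the 2 arrays of each group are separate cultures. The p-values therefore measure array-to-array spread, which may be technical. HIST1H111L, a linker histone gene, had signals of 1645 and 2186 for wild type, 5810 and 1597 for K11 and 4793 and 4442 for K11-5; where its probes lie relative to any deletion is not known here, so it does not check the labels. The ratio of signals from 3' and 5' end probe sets is a measure of RNA quality. For actin it ran from 7.15 to 8.10 in wild type, 9.23 to 9.31 in K11 and 5.28 to 6.29 in K11-5. For GAPDH it ran from 0.89 to 0.92 in wild type, 0.82 to 0.83 in K11 and 0.80 to 0.91 in K11-5. Over 9 B cell genes the summed signal ran from 5046 to 5900 in wild type, 9028 to 10132 in K11 and 3017 to 5549 in K11-5. Of these, IGLL1 carried most of the difference in K11, with 1354 and 1216 in wild type against 4720 and 5409, and it was the gene that rose there. CD79B, BTK and EBF1 fell in K11-5, where IGLL1 rose, and PAX5 was below the background signal of 11.4 in both wild type arrays. Over 16 markers of T, erythroid, myeloid and fibroblast cells the sum ran from 1557 to 1781 in wild type, 1704 to 1732 in K11 and 791 to 1107 in K11-5. The lower sum in K11-5 was carried by CD3D, which fell from 1153 and 1174 in wild type to 213 and 397, while the 4 myeloid genes summed to 311 and 501 in wild type and 488 and 582 in K11-5. CD3E, CD4, CD28, CSF3R, LYZ and DCN were below background in every array, no marker was listed at 0, and the part of these differences in the results was not tested.

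Some of the checkpoint, break repair, and mismatch and excision repair genes changed. None of the 8 crosslink repair and damage bypass genes did, but 8 are too few to set that group apart at the shares below. In K11-5 against wild type, ATR, GADD45A and XPA rose and BRCA2 fell, which is 4 of 44, or 9.09%, where 5.46% of all tested probe sets passed (2.6% higher and 2.86% lower). In K11 against wild type, ATR, BRCA1, XRCC6 and POLB rose and ATRIP and CHEK2 fell, which is 6 of 44, or 13.6%, against 7.71% of all tested probe sets (3.75% higher and 3.96% lower). Shares over all tested probe sets, here and below, include dim and duplicate ones. Each listed gene is instead its brightest probe set, and 39 members exceeded the background signal in all 6 arrays. With fewer probe sets tested, from the 60th percentile up, 1348 passed in K11-5 and 1944 in K11, with the same 4 and 6 members. Those counts were above the 1260 and 1778 of the larger set. The share that passed among brighter probe sets was therefore higher than 5.46% and 7.71%, and it is the closer comparison for these members. The members' shares of 9.09% and 13.6% are not shown to exceed it. ATR was the gene that changed in both lines at this setting, and its call in K11-5 was lost under other settings given below. Between K11-5 and K11 no member passed limma's threshold, where 2.87% of all probe sets did (1.1% higher and 1.76% lower), and 9 of the 44 members had an unadjusted p under 0.05, beside 17.6% of all probe sets. At that unadjusted threshold 14 of 44 members stood in each line against wild type, beside 19% of all probe sets in K11-5 and 21.7% in K11. Both lines were compared with the same wild type arrays, so their counts are not independent of each other.

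The median of the 44 genes lay close to that of all probe sets. Their median log2 fold change was -0.03 in K11-5 against wild type, -0.02 in K11 against wild type and -0.01 in K11-5 against K11, beside medians of -0.004, -0.01 and 0.02 over all tested probe sets. In K11-5, 14 members had both arrays above both wild type arrays and 15 had both below, 29 of 44 in all, where 53.2% of all tested probe sets did not overlap (26.3% higher and 26.9% lower). The same count was 28 of 44 in K11, with 12 higher and 16 lower, against a background of 52% (25.1% and 26.8%), and 23 of 44 between the lines, with 13 higher and 10 lower in K11-5, against 45.5% (23.7% and 21.8%). Among the 22 members with several tested probe sets, the fold changes against wild type had both signs for 11 in K11 and for 9 in K11-5. In a bulk sample, fewer cells that express a gene and less RNA per cell cannot be told apart.

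**Figure D1:**
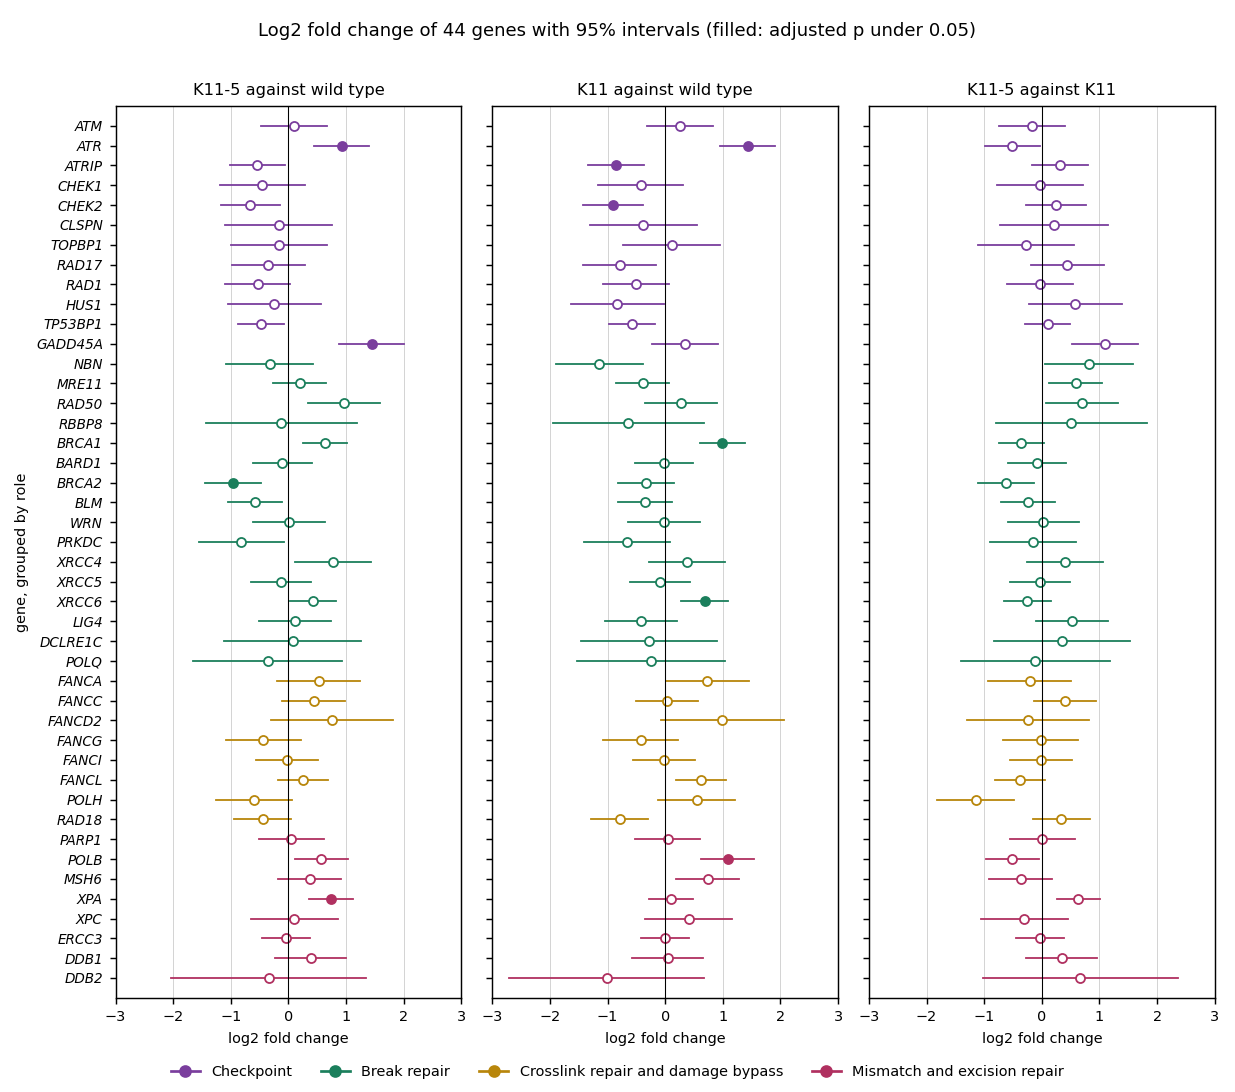
Log2 fold change (x axis, differences of log2 signal) of each of the 44 genes (y axis, grouped by role) in K11-5 and in K11, each set against wild type, and in K11-5 set against K11; lines are 95% intervals from limma and filled points passed the adjusted threshold. Filled points number 4 in the left panel, 6 in the middle panel and 0 in the right panel, and the crosslink repair genes have none.

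Among the checkpoint genes, ATR rose in both lines while its partner ATRIP fell in K11. ATR had signals of 77.9 and 89.3 for wild type, 206 and 254 for K11 and 166 and 154 for K11-5. Every array of the mutant lines was brighter than every wild type array, and K11 was the brightest group. The rise was 1.43 ± 0.21 (SE) on the log2 scale in K11 (2.70-fold, adjusted p = 0.00508). In K11-5 it was 0.92 ± 0.21 (1.89-fold, adjusted p = 0.0351). On the deposited scale ATR in K11-5 had 0.74 (adjusted p = 0.135), and with median centring 0.74 (adjusted p = 0.0566), so that this call was lost. ATRIP, which brings ATR to unpaired DNA, had signals of 156 and 163 for wild type, 80.8 and 94.9 for K11 and 114 and 104 for K11-5. It lay below wild type in every mutant array. In K11 it fell by 0.85 ± 0.22 (1.80-fold, adjusted p = 0.0417), and K11-5 had -0.54 ± 0.22 (adjusted p = 0.206). A second, dimmer ATRIP probe set had the opposite sign in K11, at 1.40 ± 0.72 (adjusted p = 0.302), where wild type gave 3.09 and 11.6 and K11 gave 21.6 and 18.4; averaged over its tested probe sets ATRIP had 0.28 and did not pass.

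CHEK2, the effector kinase downstream of ATM, fell in K11. Its signals were 195 and 167 for wild type, 81.9 and 111 for K11 and 112 and 115 for K11-5, with all mutant arrays below wild type. The fall in K11 was 0.91 ± 0.23 (1.87-fold, adjusted p = 0.0426), and K11-5 had -0.66 ± 0.23 (adjusted p = 0.142). Averaged over its tested probe sets, CHEK2 had -0.69 in K11 and did not pass (adjusted p = 0.228). CHEK1, the effector kinase of ATR, had log2 fold changes of -0.42 ± 0.33 in K11, whose arrays overlapped wild type, and -0.45 ± 0.33 in K11-5, whose arrays lay below it (adjusted p = 0.518 and 0.521). ATM, the kinase of the break response, had 56.0 and 64.5 for wild type, 70.0 and 74.8 for K11 and 72.8 and 56.7 for K11-5. Its log2 fold changes were 0.26 ± 0.26 in K11 and 0.09 ± 0.26 in K11-5, neither past the threshold.

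GADD45A, a stress-induced protein that restrains the cell cycle and a p53 target in mammals, rose in K11-5. Its signals were 879 and 620.1 for wild type, 1263 and 699 for K11 and 1967 and 2053 for K11-5. The K11-5 arrays stood above all others, while the K11 arrays lay on either side of the brighter wild type array. The rise in K11-5 was 1.44 ± 0.26 (2.72-fold, adjusted p = 0.0123), and K11 had 0.35 ± 0.26 (adjusted p = 0.486). Set against K11 directly, K11-5 was higher by 1.10 ± 0.26, with a 95% interval of 0.53 to 1.66 and an adjusted p of 0.0525.

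**Figure D2:**
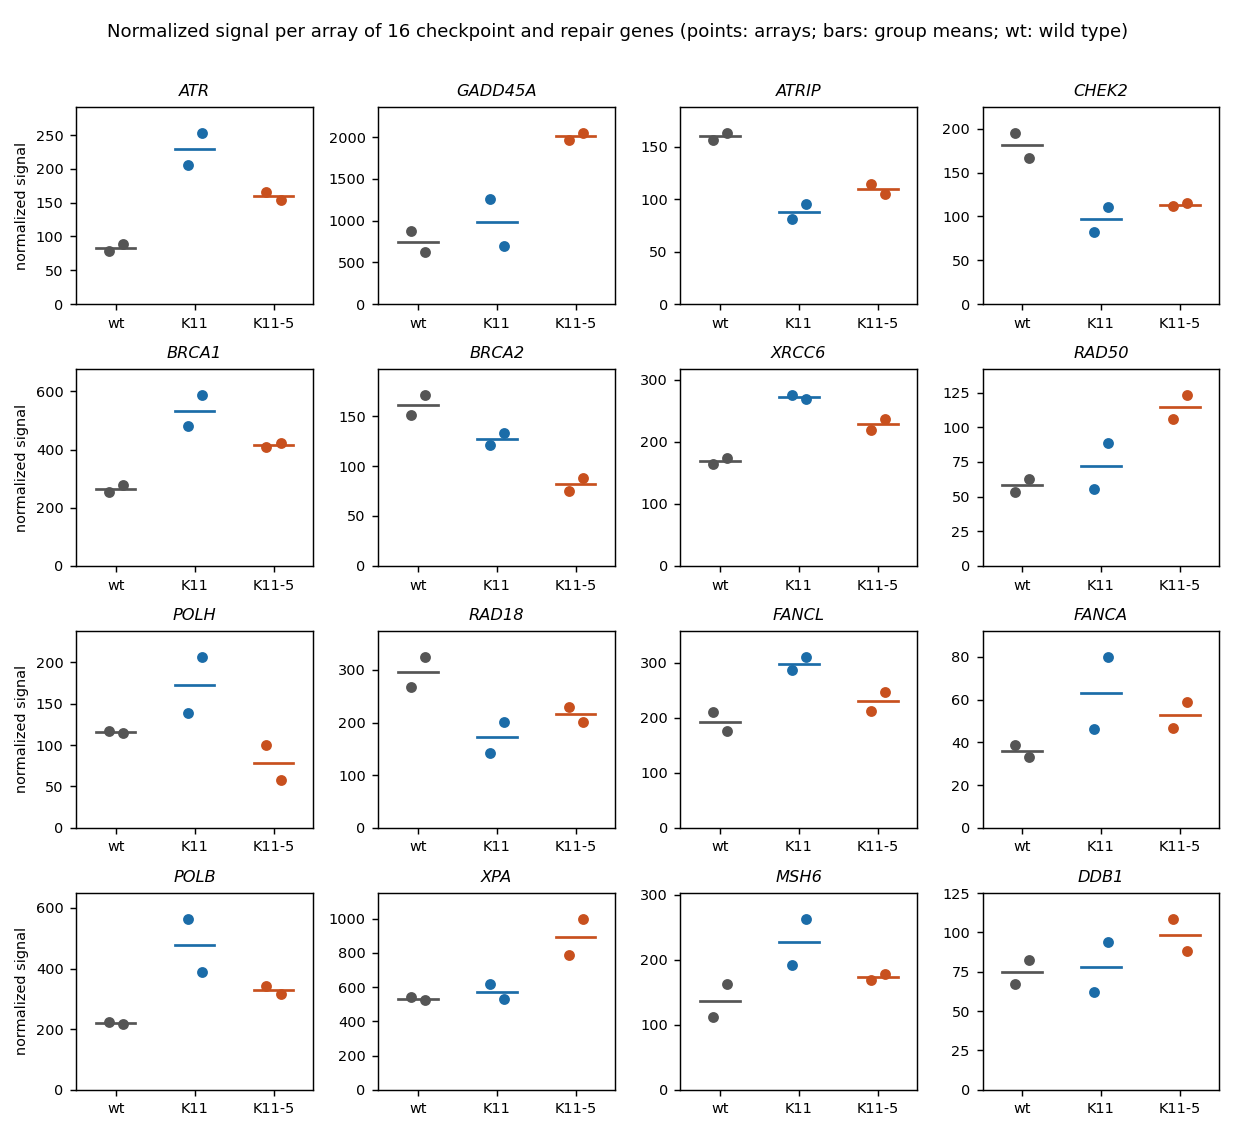
Normalized signal (y axes, linear and starting at 0) of 16 genes in the 6 arrays; points are arrays and bars are the means of wild type (wt), K11 and K11-5. ATR, BRCA1, XRCC6 and POLB are brightest in K11, GADD45A and XPA are brightest in K11-5, and BRCA2 is dimmest in K11-5.

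The other 8 checkpoint genes did not pass in any comparison. RAD17, HUS1 and RAD1 load or form the checkpoint clamp, a ring that encircles damaged DNA. RAD17, which loads the clamp, had 121 and 105 in wild type against 56.8 and 73.2 in K11, a log2 fold change of -0.79 ± 0.28 (adjusted p = 0.132). HUS1, a part of the clamp, had -0.83 ± 0.36 (adjusted p = 0.219), and RAD1, another part of it, had -0.50 ± 0.26 (adjusted p = 0.296). Their K11 arrays lay below both wild type arrays, as those of 26.8% of all tested probe sets did. In K11-5 RAD17, HUS1 and RAD1 had -0.35 ± 0.28, -0.25 ± 0.36 and -0.54 ± 0.26. TP53BP1, a chromatin protein that steers breaks towards end joining, had 424 and 453 for wild type, 279.6 and 307 for K11 and 285 and 346 for K11-5. Its log2 fold changes of -0.58 ± 0.18 in K11 (adjusted p = 0.0805) and -0.48 ± 0.18 in K11-5 (adjusted p = 0.167) did not pass. TOPBP1, an activator of ATR, and CLSPN, the adaptor between ATR and CHEK1, were dim, between 13.8 and 41.6, and their groups overlapped.

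In break repair, BRCA1 rose in K11 and BRCA2 fell in K11-5. BRCA1, a ubiquitin ligase subunit that starts repair by recombination, had signals of 255 and 277 for wild type, 479.6 and 588 for K11 and 408 and 422 for K11-5. Both lines lay above wild type. It rose in K11 by 0.99 ± 0.17 (1.99-fold, adjusted p = 0.0100), and had 0.64 ± 0.17 in K11-5 (adjusted p = 0.0636). On the deposited scale BRCA1 in K11 had 0.47 (adjusted p = 0.188), and with median centring 0.54 (adjusted p = 0.0638), so that the call was lost. A second BRCA1 probe set also rose in K11, by 0.91 ± 0.19 (adjusted p = 0.0191), and a dimmer one had 0.67 ± 0.30. BARD1, its partner in the ligase, had log2 fold changes of -0.02 ± 0.23 in K11 and -0.11 ± 0.23 in K11-5.

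BRCA2, which acts in repair by recombination, fell in K11-5. Its signals were 151 and 171 for wild type, 121 and 133 for K11 and 75.2 and 88.2 for K11-5, so that the groups did not overlap and K11 lay between the others. The fall was 0.97 ± 0.22 (1.95-fold, adjusted p = 0.0317), and K11 had -0.34 ± 0.22 (adjusted p = 0.417). Against K11, K11-5 had -0.63 ± 0.22, with a 95% interval of -1.11 to -0.14 and an adjusted p of 0.167. The recombination helicase BLM had 255 and 237 in wild type against 191 and 139.7 in K11-5, a log2 fold change of -0.58 ± 0.21 that did not pass (adjusted p = 0.155), and WRN, a related helicase, had 0.01 ± 0.28.

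No part of the MRE11, RAD50 and NBN complex, which holds and trims broken ends, passed in any comparison. RAD50, its ATPase, had 53.2 and 62.9 for wild type, 55.5 and 88.5 for K11 and 106 and 123 for K11-5, a log2 fold change of 0.96 ± 0.28 in K11-5 (adjusted p = 0.0822). NBN, the part that binds ATM, had 54.4 and 49.1 for wild type, 30.3 and 16.3 for K11 and 38.8 and 43.1 for K11-5. In K11 it had the lowest log2 fold change of all 44 genes, -1.14 ± 0.34 (adjusted p = 0.0728). MRE11, the nuclease, had -0.39 ± 0.21 in K11 and 0.20 ± 0.21 in K11-5, and both K11 arrays, at 134 and 142, were below both wild type arrays, at 163 and 202. A second MRE11 probe set lay the other way in K11, with 98.1 and 95.7 in wild type against 123 and 100.2 (0.19 ± 0.28), and neither passed. RBBP8, which helps MRE11 to trim ends, was above background in 1 array of 6.

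Of the end joining genes, XRCC6 rose in K11. XRCC6, the smaller Ku subunit, had 165 and 174 for wild type, 276 and 269.6 for K11 and 219 and 238 for K11-5. Both lines lay above wild type. The rise in K11 was 0.68 ± 0.18 (1.61-fold, adjusted p = 0.0493), and K11-5 had 0.43 ± 0.18 (adjusted p = 0.234). On the deposited scale the value in K11 was 0.19 (adjusted p = 0.701), where the median of all tested probe sets was -0.31. XRCC5, the larger Ku subunit, had 80.7 and 79.8 for wild type, 78.6 and 72.0 for K11 and 72.4 and 74.1 for K11-5, and its log2 fold changes of -0.09 and -0.13 did not pass. PRKDC, the kinase that Ku recruits, had 52.8 and 53.1 for wild type, 44.0 and 24.3 for K11 and 29.7 and 28.7 for K11-5, with -0.82 ± 0.33 in K11-5 (adjusted p = 0.215). XRCC4, the partner of the ligase, had 28.0 and 33.2 in wild type against 63.0 and 45.2 in K11-5 (0.77 ± 0.30, adjusted p = 0.186). Its other 2 tested probe sets had 0.04 ± 0.32 and -0.59 ± 0.63 there, and in K11 the 3 ran from -0.65 to 0.37. LIG4, the ligase itself, had 0.11 ± 0.28 in K11-5 and -0.41 ± 0.28 in K11. DCLRE1C, the nuclease Artemis, and POLQ, the polymerase of a back-up joining route, were dim and overlapped between groups.

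No gene of crosslink repair and damage bypass passed limma's threshold; an unadjusted p under 0.05 was found for 3 of 8 in K11, where 21.7% of all tested probe sets had one, and for 0 of 8 in K11-5, where 19% did. POLH, the polymerase that copies past ultraviolet lesions, lay on opposite sides of wild type in the lines. Its signals were 117 and 114 for wild type, 139 and 207 for K11 and 99.5 and 57.4 for K11-5, a log2 fold change of 0.55 ± 0.30 in K11 (adjusted p = 0.333) and -0.60 ± 0.30 in K11-5 (adjusted p = 0.321). The direct difference, K11-5 minus K11, was -1.14 ± 0.30, with a 95% interval of -1.81 to -0.48 and an adjusted p of 0.0748. RAD18, the ubiquitin ligase that calls POLH to a stalled fork, had 267 and 325 for wild type, 143 and 201 for K11 and 229.5 and 202 for K11-5. Its log2 fold change was -0.79 ± 0.22 in K11 (adjusted p = 0.0605) and -0.45 ± 0.22 in K11-5 (adjusted p = 0.315).

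The Fanconi anaemia genes had the following values. FANCL, the ubiquitin ligase of the pathway, had 211 and 176 for wild type, 286 and 311 for K11 and 212 and 247 for K11-5, a log2 fold change of 0.63 ± 0.19 in K11 (adjusted p = 0.083). FANCA, of the core complex that holds FANCL, had 38.7 and 33.3 for wild type, 46.4 and 80.1 for K11 and 46.6 and 59.1 for K11-5, with 0.73 ± 0.32 in K11 (adjusted p = 0.219). Its other 4 tested probe sets were dimmer and differed in sign in K11, from -1.78 to 0.63. FANCI, which FANCL modifies, had -0.02 ± 0.24 in K11 and -0.03 ± 0.24 in K11-5. FANCD2, the partner of FANCI, had 7.4 and 7.0 in wild type, below background, and 16.5 and 16.2 in K11 and 11.8 and 15.4 in K11-5, all above it. With 2 added to each signal, the mean of FANCD2 was 1.37-fold the background in K11 and 1.17-fold in K11-5. These ratios of point values set no minimum for a rise over wild type. The limma interval of the log2 fold change ran from -0.07 to 2.05 in K11 (adjusted p = 0.261). In K11-5 it ran from -0.31 to 1.81 (adjusted p = 0.448). Both intervals included no change, and neither comparison passed. FANCC and FANCG, also of the core complex, did not pass: FANCC had 0.03 ± 0.24 in K11 against 0.43 ± 0.24 in K11-5, and FANCG had -0.42 ± 0.29 against -0.44 ± 0.29.

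In excision repair, POLB rose in K11 and XPA in K11-5. POLB, which fills the gap in base excision repair, had 224 and 217 for wild type, 565 and 389 for K11 and 342 and 315 for K11-5. Every mutant array was brighter than wild type, and K11 was brightest. The rise in K11 was 1.08 ± 0.20 (2.12-fold, adjusted p = 0.0137), and a second POLB probe set also rose, by 1.56 ± 0.27 (adjusted p = 0.00993); K11-5 had 0.57 ± 0.20 (adjusted p = 0.153). On the deposited scale POLB in K11 had 0.56 (adjusted p = 0.209), and with median centring 0.62 (adjusted p = 0.0862), so that the call was lost. XPA, which checks the lesion in nucleotide excision repair, had 541 and 524 for wild type, 618 and 528 for K11 and 786 and 1001 for K11-5. Both K11-5 arrays lay above the other 4. XPA rose in K11-5 by 0.73 ± 0.17 (1.66-fold, adjusted p = 0.0345), while K11 had 0.10 ± 0.17 (adjusted p = 0.786). The difference, K11-5 minus K11, was 0.63 ± 0.17 (adjusted p = 0.0815). On the deposited scale XPA in K11-5 had 0.54 (adjusted p = 0.251), and with median centring 0.54 (adjusted p = 0.108), so that the call was lost. Without the intensity filter it was lost as well (adjusted p = 0.0511).

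The remaining excision and mismatch genes did not pass. MSH6, which recognises mismatched bases, had 112 and 162 for wild type, 193 and 264 for K11 and 169 and 179 for K11-5, with 0.74 ± 0.25 in K11 (adjusted p = 0.106) and 0.37 ± 0.25 in K11-5. DDB1, a ubiquitin ligase subunit that also finds ultraviolet lesions, had 67.1 and 82.3 for wild type, 62.4 and 94.0 for K11 and 109 and 88.2 for K11-5 (0.39 ± 0.28, adjusted p = 0.505). PARP1, which marks strand breaks with poly(ADP-ribose), had 537 and 654 for wild type, 469 and 797 for K11 and 521 and 724 for K11-5, and ERCC3, a helicase of transcription factor TFIIH, ran from 308 to 387 over the 6 arrays. The log2 fold changes of both lay between -0.04 and 0.05, with 95% intervals from -0.52 to 0.62 for PARP1 and from -0.46 to 0.41 for ERCC3. XPC, the lesion sensor, was dim at 19.4 to 32.1, and DDB2, the partner of DDB1, was above background in 1 array.

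The values of some members went with those of their chromosomes, and those of others did not. The 44 genes lie on 18 chromosomes of assembly GRCg7b, and the tested probe sets of some chromosomes were shifted as a whole in the lines. ATR lies on chromosome 9, where the middle value of 544 tested probe sets was 0.42 in K11 and 0.39 in K11-5 on the log2 scale, and POLB lies on chromosome 22, with medians of 0.40 and 0.49. Measured against their chromosomes, ATR stood at 1.01 in K11 and 0.53 in K11-5, and POLB at 0.68 and 0.08. Chromosome 10, with TP53BP1, BLM and FANCI, had medians of -0.46 in K11 and -0.36 in K11-5, and TP53BP1 stood at -0.12 against it in both lines. BLM stood at 0.12 in K11 and -0.22 in K11-5 against it, and FANCI at 0.44 and 0.33. Chromosome 2, with TOPBP1, HUS1, NBN, RBBP8 and PRKDC, had -0.41 and -0.40. Against it in K11, NBN stood at -0.73, HUS1 at -0.42, PRKDC at -0.25, RBBP8 at -0.23 and TOPBP1 at 0.52. The chromosomes of GADD45A, BRCA2, XRCC6, ATRIP and CHEK2 had medians between -0.06 and 0.02 in both lines. BRCA1 lies on chromosome 27, which had 0.05 in K11 and 0.38 in K11-5, and XPA lies on Z, which had -0.16 and -0.09. In a fit on log2 values taken relative to the chromosome median of each array, GADD45A, BRCA2 and XPA passed in K11-5 and ATR and BRCA1 in K11. ATR in K11-5 had an adjusted p of 0.209 there and POLB in K11 one of 0.159. XRCC6, ATRIP and CHEK2 in K11 did not pass there either (adjusted p = 0.0798, 0.0522 and 0.0638).

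**Figure D3:**
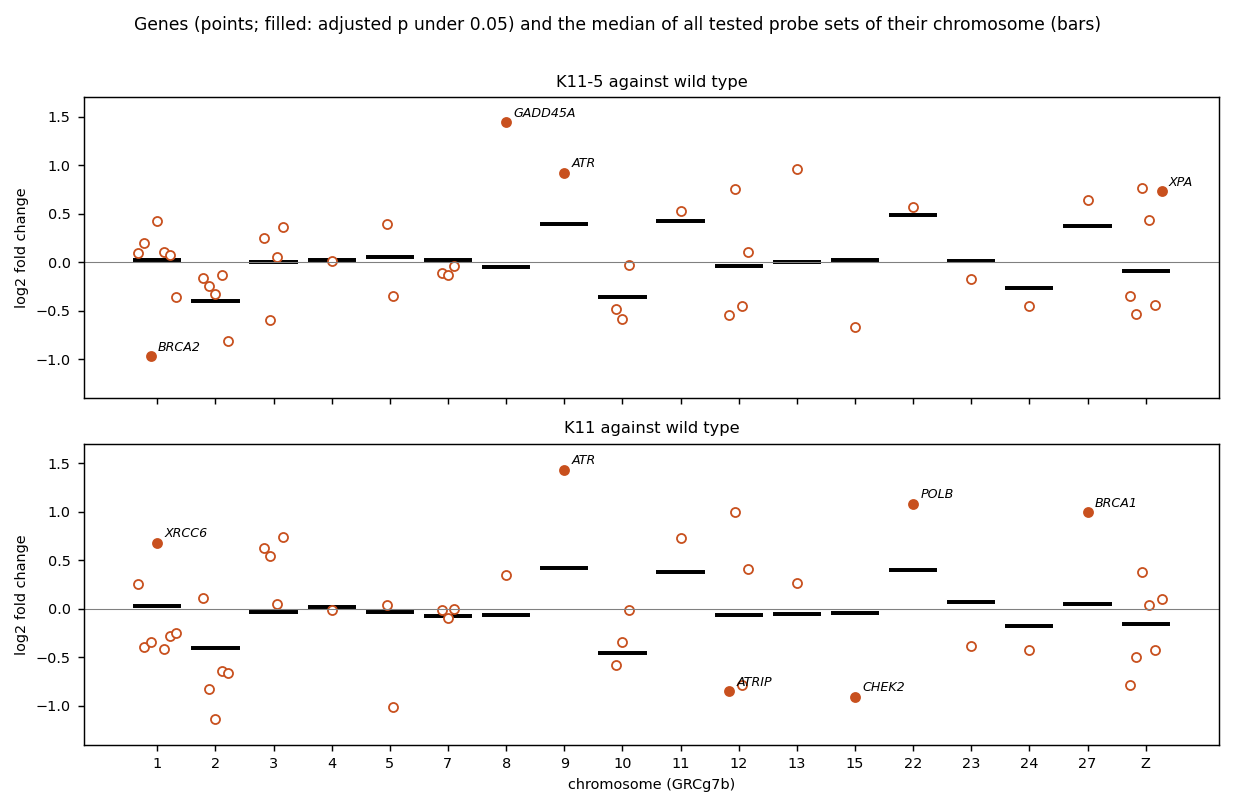
Log2 fold change (y axis) of the 44 genes by chromosome (x axis), in K11-5 against wild type above and K11 against wild type below; points are genes, filled where the adjusted p was under 0.05, and bars are medians of all tested probe sets of the chromosome. The bars of chromosomes 9, 11 and 22 lie between 0.38 and 0.49 in both panels, and ATR lies above its bar by 0.53 in the upper and 1.01 in the lower panel.

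With single arrays left out, the calls in K11-5 could not change sign, because their arrays did not overlap with wild type. The sizes of the changes could move. GADD45A ran from 1.19 on the log2 scale without wild type replicate 2 to 1.69 without wild type replicate 1. ATR ran from 0.83 without wild type replicate 1 to 1.02 without wild type replicate 2. BRCA2 ran from -0.85 without K11-5 replicate 1 to -1.08 without K11-5 replicate 2. XPA ran from 0.56 without K11-5 replicate 2 to 0.91 without K11-5 replicate 1. Each call was lost without 1 or both wild type arrays, and also without 1 or both K11-5 arrays. Such a fit leaves 1 array in a group, and fewer probe sets of the whole array passed there too. On the deposited scale GADD45A rose and BRCA2 fell, where 1114 of all tested probe sets passed, against 1260 after quantile normalization. After median centring GADD45A rose and BRCA2 and CHEK2 fell, where 1595 passed.

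The calls in K11 could not change sign with single arrays left out either, for the same reason. Without K11 replicate 1, ATR had 1.58, BRCA1 1.14, POLB 0.81, XRCC6 0.67, ATRIP -0.74 and CHEK2 -0.69. Without K11 replicate 2, ATR had 1.28, BRCA1 0.85, POLB 1.35, XRCC6 0.70, ATRIP -0.96 and CHEK2 -1.12. Leaving out 1 or the other wild type array lost each call at least once, and fewer probe sets of the whole array passed there too. The calls of ATRIP, CHEK2 and XRCC6 were also lost without K11 replicate 1 and without either K11-5 array. That of XRCC6 was lost without K11 replicate 2 as well. The balance of rises and falls depended on the scale, and so did the number of calls over the whole array. After quantile normalization 4 rose and 2 fell, where 1778 of all tested probe sets passed. On the deposited scale 1 rose and 7 fell, where 2931 passed and the median over all tested probe sets was -0.31. Median centring gave 1 rise and 10 falls, where 3435 passed, at a median of -0.25. ATR rose and ATRIP and CHEK2 fell in all of these scalings.

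**Figure D4:**
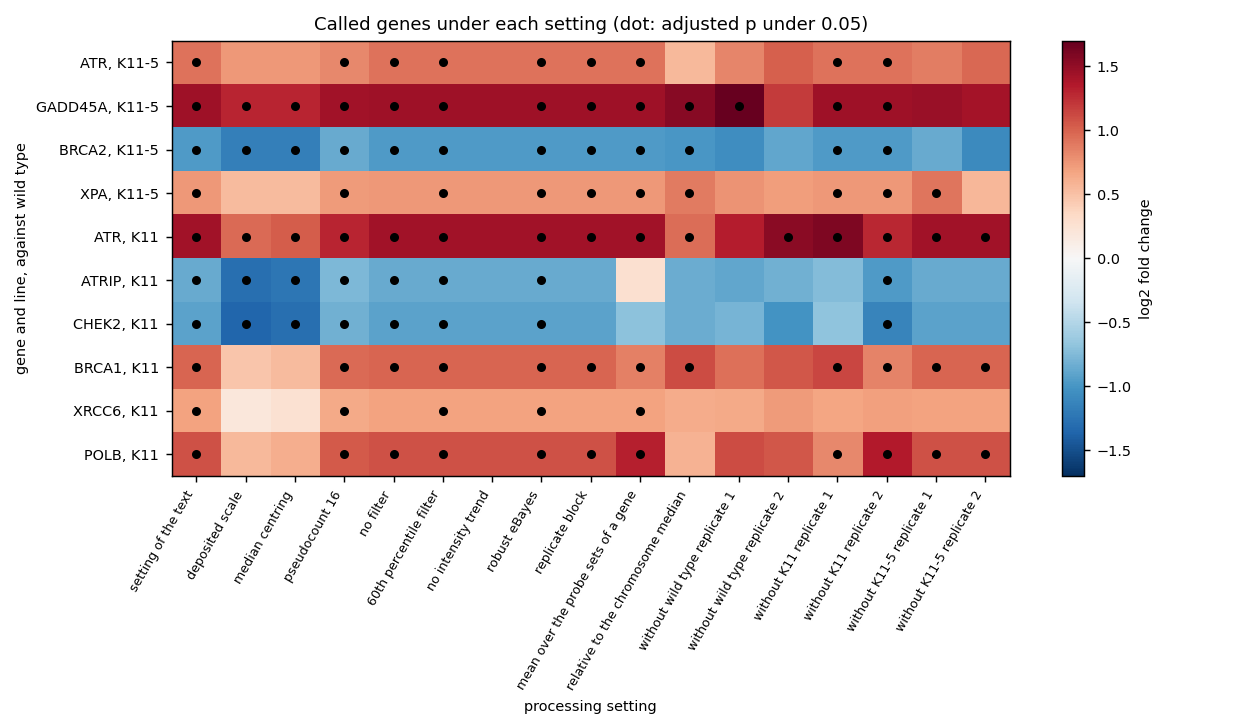
Log2 fold change (colour scale) of the 10 calls of the text (rows) under the reported setting and 16 alternatives (columns); a dot marks an adjusted p under 0.05. ATR in K11 keeps its dot under 14 alternatives and XRCC6 in K11 under 4. ATRIP changes sign when its probe sets are averaged. Most alternatives leave the value as it is or cannot turn its sign.

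Other genes of the same pathways were taken from a wider list of 96 repair genes, of which 79 had a probe set and 77 were tested. In K11-5, 1 rose and 6 fell, or 9.09%, against 5.46% of all tested probe sets. In K11, 1 rose and 2 fell, or 3.90%, against 7.71%. Between the lines 1 was higher and 4 were lower in K11-5, or 6.49%, against 2.87%. UNG, the uracil glycosylase that also acts on deaminated immunoglobulin genes in B cells, changed in all 3 comparisons. Its signals were 563 and 766 for wild type, 1335 and 1164 for K11 and 315 and 384 for K11-5, so that K11 lay above and K11-5 below wild type. It rose in K11 by 0.92 ± 0.19 (adjusted p = 0.0178) and fell in K11-5 by 0.91 ± 0.19 (adjusted p = 0.0227). On the deposited scale its log2 fold change in K11 was 0.35, and averaged over its probe sets 0.62, and neither passed.

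Several of the other changes were in K11-5, and some were lost in the fit relative to the chromosome median. XRCC2, which acts in recombination, fell by 1.11 ± 0.26, with 94.7 and 120.2 in wild type becoming 47.3 and 49.3 (adjusted p = 0.0339), and relative to its chromosome XRCC2 had -0.69 (adjusted p = 0.192). POLL, an end joining polymerase, fell by 1.40 ± 0.33 (adjusted p = 0.0392), and NEIL1, a glycosylase for oxidised bases, fell by 1.06 ± 0.20 (adjusted p = 0.0169), against -0.66 relative to its chromosome (adjusted p = 0.122). RAD54L, a motor protein of recombination, had 134 and 154 for wild type, 161 and 201 for K11 and 84.5 and 70.0 for K11-5, and its log2 fold change of -0.88 ± 0.23 in K11-5 did not pass (adjusted p = 0.0546). PMS2, of mismatch repair, had 343 and 388 for wild type, 372 and 364 for K11 and 203 and 213 for K11-5 (-0.80 ± 0.17, adjusted p = 0.0257). RAD21, the cohesin subunit, fell by 0.70 ± 0.13 (adjusted p = 0.0167). Relative to its chromosome RAD21 had -0.28 (adjusted p = 0.323), and averaged over its probe sets -0.40 (adjusted p = 0.312). CETN2, a centrin that joins XPC in lesion recognition, was the gene of this list that rose, from 201 and 132 to 349 and 513 (1.37 ± 0.27, adjusted p = 0.0178), with 137 and 171 in K11. In K11, TIPIN, which protects stalled forks, fell by 0.92 ± 0.21, with 195 and 197 in wild type becoming 94.0 and 112 (adjusted p = 0.0256), and relative to its chromosome TIPIN had -0.46 (adjusted p = 0.255). NSMCE2, a ligase that attaches SUMO to repair proteins, fell there by 1.31 ± 0.22, with 243 and 199.6 in wild type becoming 98.0 and 78.0 (adjusted p = 0.00862).

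Of 18 p53 pathway genes 11 were tested; 1 fell in K11-5, or 9.09%, while 1 rose and 1 fell in K11, or 18.2%, beside 5.46% and 7.71% of all tested probe sets. GADD45A, described above, belongs to the same set of mammalian p53 targets. SESN1, a stress protein that restrains growth signalling, rose in K11 by 1.57 ± 0.24, from 253 and 228 to 549 and 929.9 (adjusted p = 0.00559). RRM2B, which supplies nucleotides for repair, fell in K11 by 1.36 ± 0.28, with 80.8 and 88.0 in wild type becoming 37.2 and 26.7 (adjusted p = 0.0193), against -0.92 relative to its chromosome (adjusted p = 0.0867). TP53INP1, a mediator of p53 activity, had 168 and 176 for wild type, 262 and 153 for K11 and 52.4 and 77.7 for K11-5, and fell in K11-5 by 1.40 ± 0.29 (adjusted p = 0.0241). Relative to its chromosome TP53INP1 had -0.98 (adjusted p = 0.106), and averaged over its probe sets -1.54 (adjusted p = 0.0530). These 11 genes had median log2 fold changes of 0.21 in K11 and -0.25 in K11-5.

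**Figure D5:**
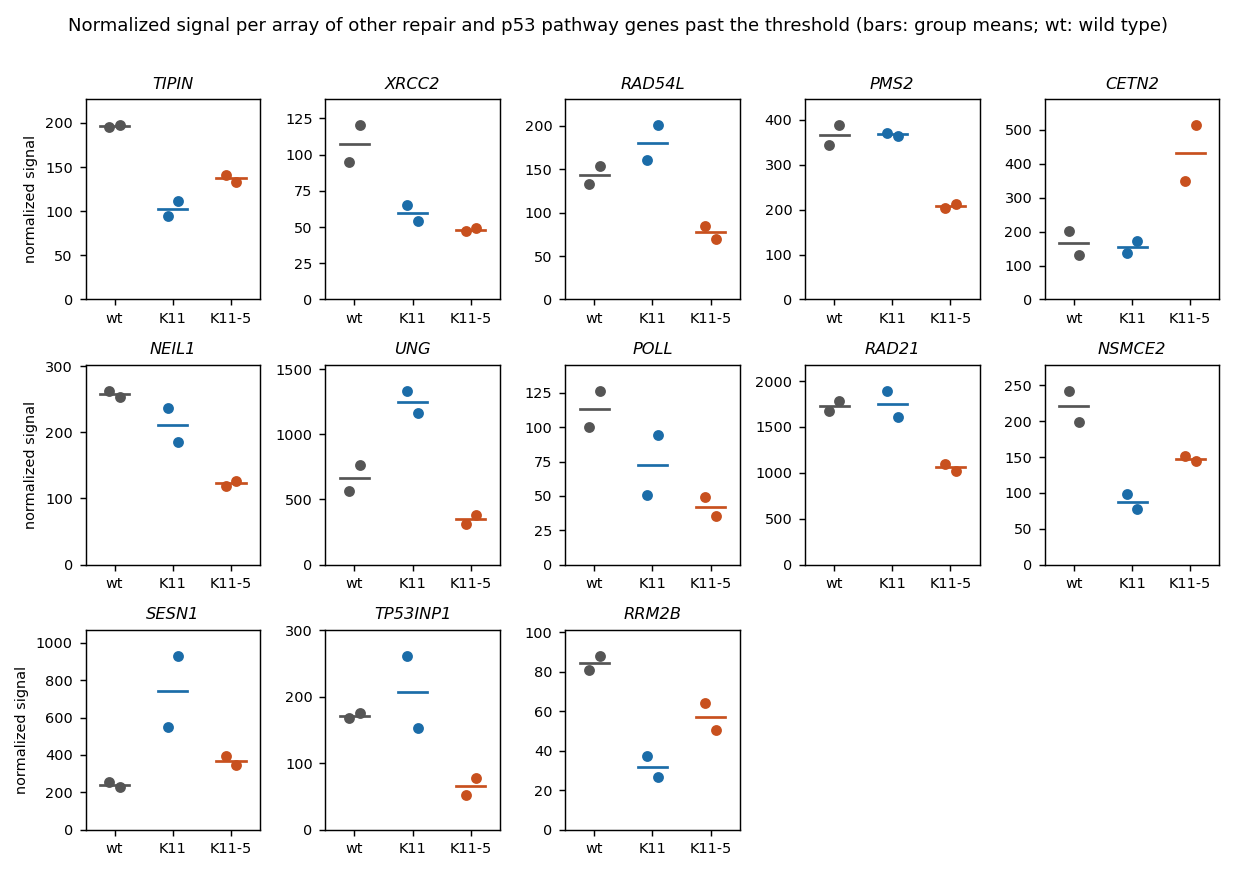
Normalized signal (y axes, linear and starting at 0) of the 13 genes from the wider repair list and the p53 pathway list that passed the threshold in at least 1 comparison; points are arrays and bars are means of wild type (wt), K11 and K11-5. UNG is brightest in K11 at 1335 and 1164 and dimmest in K11-5 at 315 and 384, while TIPIN, NSMCE2 and RRM2B are dimmest in K11.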

How the data were processed

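Each array has a deposited intensity, on a linear scale, for every probe set; per the submitters' processing notes the authors used GCOS, with no version, signal algorithm or scaling given in those sources. After removal of 96 control probe sets 38439 remained. Trimmed mean intensities (2% at each end) differed by up to 1.62 times between arrays, so values were quantile-normalized, and log2(value + 2) was analysed. Probe sets with a mean log2 value at or above the 40th percentile were tested, 23063 in all, with limma 3.58.1 in R 4.3.3 (a mean per group, intensity trend, 3 residual and 6.96 prior degrees of freedom) and Benjamini-Hochberg adjustment over all of them. Background was the 95th percentile of 23 control probe sets for sequences that chicken RNA should lack. The platform annotation pairs 27168 of 38439 probe sets with 1 gene symbol and 177 with several, which were not named; 26853 were matched to RefSeq genes (GRCg7b). Members passing the threshold in any comparison were described in full, then those of smallest p until each role group had 4. Members and lists were chosen with earlier results of these data known. No sequence tables were used here.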

Additional observations from a re-analysis of the deposited data

Results flagged for a closer look

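In the direct test, K11-5 minus K11, 1 of 77 tested genes of the wider repair list was higher and 4 were lower (6.49%). Of 11 tested p53 pathway genes 1 was lower (9.09%), beside 2.87% of all tested probe sets. On the log2 scale UNG differed by -1.84 ± 0.19 (limma's adjusted p = 0.00218), TP53INP1 by -1.62 ± 0.29 (adjusted p = 0.0223) and RAD54L by -1.20 ± 0.23 (adjusted p = 0.0271). PMS2 differed by -0.82 ± 0.17 (adjusted p = 0.0387), RAD21 by -0.72 ± 0.13 (adjusted p = 0.0255) and CETN2 by 1.46 ± 0.27 (adjusted p = 0.0227). UNG kept this call under 15 of 16 alternatives, CETN2 under 13, RAD54L and TP53INP1 under 9, PMS2 under 8 and RAD21 under 6. None of the 44 checkpoint and repair genes passed limma's test of this difference at the reported setting. Of the 44, 9 had an unadjusted p under 0.05, beside 17.6% of all tested probe sets.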

How the results depend on the processing

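The 10 calls were recomputed under 16 alternatives, which gave 160 values, of which 93 passed the threshold; ATRIP in K11 was the value that changed sign, at 0.28 when its tested probe sets were averaged. Most alternatives leave a log2 fold change as it is or cannot turn its sign where the groups do not overlap. In K11-5 against wild type the 4 calls became 2 on the deposited scale, where calls over all tested probe sets went from 1260 to 1114. They became 0 when the variance had no intensity trend, where 9 members had an unadjusted p under 0.05. In K11 against wild type the 6 calls became 11 with median centring, 3 with the replicate number as a block, 2 relative to the chromosome median and 0 without the intensity trend, where 12 had an unadjusted p under 0.05, and 0 to 7 when single arrays were left out. In K11-5 against K11, where 661 of all tested probe sets passed, the count was 0. It became 2, GADD45A and XPA, on the deposited scale (1031 over all) and with median centring (1246 over all). It became 1, GADD45A each time, with a pseudocount of 16 (801 over all), robust variance estimation (676) and the replicate block (649). Deviations of same-numbered arrays had correlations of 0.060, -0.039 and -0.032 over 23063 probe sets. With 2 normalized arrays in each group this cannot tell whether same-numbered arrays shared a culture day or batch, which the labels do not state. The count for all tested probe sets fell from 1260 to 27 in K11-5 and from 1778 to 21 in K11 without the intensity trend. Dim genes such as RBBP8, DDB2 and POLQ, near the background of 11.4, were measured least precisely.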
